A study of Homo sapiens with 8 samples.

Results

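The regions described here were the PHF20 ChIP-Seq peaks that lay at promoters of noncoding genes and at no promoter of a protein-coding gene. Promoter windows covered 1000 bp before and 500 bp after the transcription start site (TSS) of every GENCODE transcript on hg38. A peak was counted when it shared at least 1 bp with such a window of a noncoding transcript and with none of a protein-coding gene. The rule found 266 of the 4147 PHF20 peaks. Of the others, 3562 lay at a coding promoter and 319 lay outside all annotated promoters.

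U2OS, a human osteosarcoma cell line, ectopically expressed PHF20 or PHF20L1 fused to a triple HA tag, and chromatin was recovered with an antibody against HA. The PHF20 list rests on 2 PHF20_ChIP libraries and 1 PHF20_Input library, all from a construct marked N. The PHF20L1 list rests on 3 PHF20L1_ChIP libraries, 1 from a construct marked N and 2 from a construct marked C, and on 2 PHF20L1_Input libraries, 1 of each construct. Cells had been sorted for GFP before the libraries were made, and the peaks are those of tagged, ectopically expressed proteins in 1 cell line. The deposited lists give the start and end of each peak after the replicates had been combined, with no height and no value per replicate, so the depth behind a peak cannot be taken from them and no spread between replicates could be given.

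PHF20 and its paralog PHF20L1 are Tudor domain proteins that read methylated lysine, and each is a subunit of the NSL histone acetyltransferase complex, which is known for binding promoters of broadly expressed genes. Many noncoding RNAs are made from promoters of their own. Long noncoding RNAs (lncRNAs) are transcribed by RNA polymerase II, often from CpG islands. The spliceosomal U1, U2, U4 and U5 RNAs and the U3 and U8 nucleolar RNAs also come from RNA polymerase II, at short genes with no intron and a dedicated upstream element, whereas U6 RNA is made by RNA polymerase III. Pseudogenes are degenerate copies of coding genes, or genes that have lost their own coding capacity, and some keep a promoter.

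Stretches of 5 member peaks show some of the sequence types counted below. They are given in the direction of the noncoding gene, with every copy of the 8-mers ACTTCCGG (an ETS-type sequence), CACGTGAC (an E-box), GCGCATGC (an NRF1-type sequence) and TCTCGCGA (found in CpG-rich promoters), or of their reverse complements, in capitals. All 5 stretches hold ACTTCCGG, which was found at only 30 of the 266 members (11.3%), so they are not a typical sample. None of the stretches holds GCGCATGC or TCTCGCGA. The peaks were those of ENSG00000271780 (chr14:101948361-101948660, plus strand), the widest of all members; LINC00667 (chr18:5237993-5238152, plus strand) and NORAD (chr20:36050939-36051158, minus strand), lncRNAs of the list of well-studied genes; FRG1GP (chr22:12602205-12602364, plus strand), a pseudogene; and MIATNB (chr22:26672694-26672913, plus strand), chosen after its values were seen because it held the most copies of ACTTCCGG (4 around the peak centre, 3 of them in the stretch shown).
ENSG00000271780: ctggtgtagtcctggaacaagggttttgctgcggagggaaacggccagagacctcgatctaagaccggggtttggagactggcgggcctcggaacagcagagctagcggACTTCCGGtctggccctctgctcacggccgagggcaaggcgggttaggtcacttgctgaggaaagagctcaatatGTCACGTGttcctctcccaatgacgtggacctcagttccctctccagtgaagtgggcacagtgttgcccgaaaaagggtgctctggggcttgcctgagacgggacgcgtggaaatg
LINC00667: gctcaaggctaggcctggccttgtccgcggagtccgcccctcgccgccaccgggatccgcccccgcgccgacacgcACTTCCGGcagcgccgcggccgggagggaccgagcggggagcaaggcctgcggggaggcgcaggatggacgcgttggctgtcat
NORAD: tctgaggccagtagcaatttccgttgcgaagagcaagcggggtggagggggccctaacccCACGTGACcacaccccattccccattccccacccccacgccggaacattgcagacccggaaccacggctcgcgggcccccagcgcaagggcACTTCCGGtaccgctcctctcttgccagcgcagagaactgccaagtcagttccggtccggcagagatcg
FRG1GP: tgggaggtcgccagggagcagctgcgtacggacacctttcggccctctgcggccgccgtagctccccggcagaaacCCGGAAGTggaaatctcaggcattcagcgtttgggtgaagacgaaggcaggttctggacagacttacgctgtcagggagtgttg
MIATNB: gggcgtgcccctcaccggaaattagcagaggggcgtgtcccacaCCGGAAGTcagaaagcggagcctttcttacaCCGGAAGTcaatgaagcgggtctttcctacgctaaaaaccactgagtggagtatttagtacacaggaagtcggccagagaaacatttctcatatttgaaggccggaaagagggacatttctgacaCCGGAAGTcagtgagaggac

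A small RNA gene gives an example of a member with no CpG island-like sequence and no copy of ACTTCCGG. The sequence of RNU4-1 (U4 RNA, chr12:120292988-120293287, minus strand) runs from 50 bp before the annotated start, and the capitals mark the transcribed RNA of 141 bp.
RNU4-1: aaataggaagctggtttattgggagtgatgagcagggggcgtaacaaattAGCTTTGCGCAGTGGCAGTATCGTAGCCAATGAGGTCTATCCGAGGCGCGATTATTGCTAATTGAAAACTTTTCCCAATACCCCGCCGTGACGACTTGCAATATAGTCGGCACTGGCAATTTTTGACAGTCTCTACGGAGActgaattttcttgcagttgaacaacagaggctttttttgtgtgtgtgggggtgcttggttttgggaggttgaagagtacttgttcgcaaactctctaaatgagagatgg

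Most members lay at lncRNA starts. Each member was given the class of the noncoding TSS nearest to its centre, and 207 (77.8%) were lncRNA, 35 (13.2%) pseudogene, 20 (7.52%) small RNA and 4 (1.5%) of the type TEC, which marks transcripts still to be experimentally checked. Counted over every window that a member touched, 213 met an lncRNA, 65 a pseudogene and 33 a small RNA gene, and 50 members met more than 1 class. The members named 256 genes, 10 of them with a pair of members each, among them RNU5B-1, LEF1-AS1 and AHSA2P. The small RNA members comprised 14 at snRNA genes, 5 at snoRNA genes and 1 at a miRNA gene. Among pseudogenes, 14 were processed copies and 10 unprocessed copies, both with no record of transcription in their type, and the other types held 5 or fewer each.

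Promoters annotated as lncRNA held PHF20 peaks more often than those annotated as pseudogene or small RNA did. Windows that overlapped one another were merged within a class, and those that met a coding window or another class were left out. The classes follow the annotated type, which is lncRNA for some genes with pseudogene symbols, such as CROCCP2 and BMS1P1. Of the members, 65 met a pseudogene window but only 35 were classed as pseudogene. How far this bears on the difference was not tested. Of 18120 lncRNA windows, 148 (0.817%, 95% Wilson interval 0.696% to 0.959%) held a peak, against 29 of 13484 pseudogene windows (0.215%, 0.15% to 0.309%) and 14 of 5162 small RNA windows (0.271%, 0.162% to 0.455%). The excess of lncRNA over pseudogene windows was 0.602 percentage points (0.449 to 0.758, exact adjusted p = 2.09e-13) and that over small RNA windows 0.546 points (0.326 to 0.725, exact adjusted p = 6.56e-06), by 2-sided Fisher's exact tests with Benjamini-Hochberg adjustment over the 2 tests. Over all merged noncoding windows the share was 0.643% (253 of 39330), and over the coding windows it was 6.12% (3379 of 55184). These tests, and those below, count peaks or windows of 1 combined list, which are not replicates, so their p-values cover counting only.

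Member peaks stood between the coding promoter peaks and the peaks outside promoters in width and CpG content. Their median width was 528 bp (quartiles 338 and 801, range 200 to 1570), against 635 bp at coding promoters and 331 bp outside promoters. At or above 599 bp, the median of all PHF20 peaks, were 112 members (42.1%), where the share over all PHF20 peaks was 50.1%. That was 11.5 points fewer than at coding promoters (53.6%, interval of the difference -17.5 to -5.24, exact adjusted p = 9.8e-04) and 24.6 points more than outside promoters (17.6%, 17.2 to 31.6, exact adjusted p = 3.85e-10). Width is the only property of a peak that the list gives, and the height of the signal under it is unknown.

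CpG island-like sequence, defined as at least 50% GC and an observed to expected CpG ratio of at least 0.6 in the 500 bp around the peak centre, was present at 181 members (68%). Over all PHF20 peaks the share was 84.8%. Coding promoter peaks had it in 90.1%, a difference of -22 points for the members (-27.9 to -16.6, exact adjusted p = 9.02e-20), and peaks outside promoters in 40.1%, a difference of 27.9 points (19.9 to 35.4, exact adjusted p = 9.52e-11). Among annotated noncoding genes as a whole, 13.7% had such a sequence in the 500 bp around the outermost TSS, against 59.3% of coding genes. The CpG island-like share was 71.5% for lncRNA members, 68.6% for pseudogene members and 30% for small RNA members. Around the outermost TSS of all annotated genes of the class, it was 21.6% for lncRNA and 5.2% for small RNA.

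The 4 8-mers were searched on both strands of the same 500 bp. ACTTCCGG and CACGTGAC had been chosen because earlier results of these data named them, ACTTCCGG as the leading sequence. Their shares and p-values are therefore not independent of those results. ACTTCCGG was found at 30 members (11.3%), and over all PHF20 peaks at 15.6%. Coding promoter peaks held it in 16.7% (difference -5.45 points, -8.95 to -0.929, exact adjusted p = 0.0378) and peaks outside promoters in 5.96% (5.32 points, 0.781 to 10.2, exact adjusted p = 0.0379). The first of these differences missed the threshold under 9 of 13 other settings, among them lncRNA members only (exact adjusted p = 0.094), and the second under 3 of 13. Around the TSS of all annotated genes, 1.34% of noncoding and 5.93% of coding promoters of that length held ACTTCCGG. CACGTGAC was found at 17 members (6.39%, over all PHF20 peaks 5.76%), which exceeded the 2.19% outside promoters (4.2 points, 0.923 to 7.97, exact adjusted p = 0.0283), and the difference from coding promoters was 0.355 points (-2.15 to 4.03, exact adjusted p = 0.851). The excess over peaks outside promoters missed the threshold under 4 of 13 other settings, among them peaks of at least 300 bp (exact adjusted p = 0.374). Among all annotated noncoding promoters, 0.987% held CACGTGAC, 1.43% GCGCATGC and 0.305% TCTCGCGA. GCGCATGC was found at 8 members (3.01%, over all PHF20 peaks 4.17%) and TCTCGCGA at 6 (2.26%, over all PHF20 peaks 3.09%). For these last 8-mers no difference from coding promoter peaks passed the threshold (GCGCATGC -1.34 points, -2.99 to 1.54, exact adjusted p = 0.442, and TCTCGCGA -1.11 points, -2.49 to 1.52, exact adjusted p = 0.552), nor from peaks outside promoters (-0.127 points, -3.06 to 3.03, exact adjusted p = 1, and 1.63 points, -0.406 to 4.25, exact adjusted p = 0.21).

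**Figure D1:**
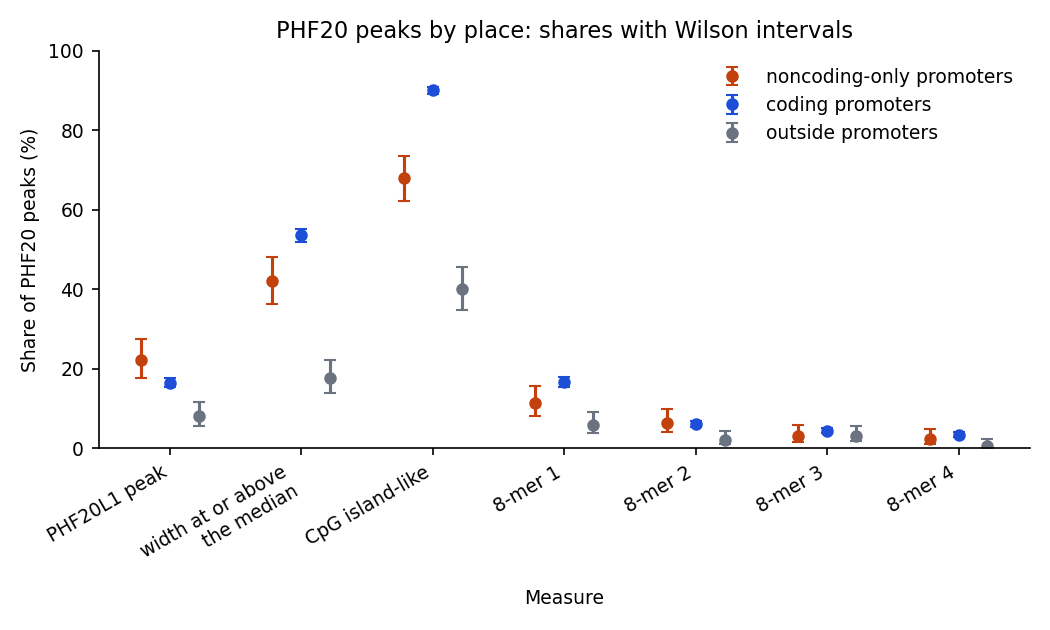
Share of PHF20 peaks, in percent, with each of 7 properties, for the 266 peaks at noncoding-only promoters, the 3562 at coding promoters and the 319 outside promoters. Points are shares and bars 95% Wilson intervals, and the 8-mers 1 to 4 are ACTTCCGG, CACGTGAC, GCGCATGC and TCTCGCGA. The members lie between the other sets in width and CpG content (68% against 90.1% and 40.1%) and above both in overlap with PHF20L1 (22.2% against 16.5% and 8.15%).

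PHF20L1 shared 59 of the member peaks (22.2%, Wilson interval 17.6% to 27.5%), where the share over all PHF20 peaks was 16.2%. It shared 16.5% of coding promoter peaks, a difference of 5.7 points (0.955 to 11.2, exact adjusted p = 0.0378), and 8.15% of the peaks outside promoters, a difference of 14 points (8.25 to 20, exact adjusted p = 6.38e-06). The excess over coding promoters missed the threshold under 6 of 12 other settings, among them lncRNA members only (17.9%, 1.39 points, exact adjusted p = 0.703) and, in a setting chosen after seeing the data, no small RNA members (18.7%, 2.22 points, exact adjusted p = 0.526). The classes themselves had 37 shared peaks of 207 for lncRNA (17.9%, 13.3% to 23.7%), 8 of 35 for pseudogenes (22.9%, 12.1% to 39%), 13 of 20 for small RNA (65%, 43.3% to 81.9%) and 1 of 4 for TEC. Classes were compared after the values were seen, so they were not tested against one another.

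From the side of PHF20L1, 58 of its 723 peaks lay at noncoding-only promoters, and all 58 overlapped a member. Over the whole list only 41 of the 723 met no PHF20 peak, so such overlap was not particular to noncoding-only promoters. Of the 41 PHF20L1 peaks that met no PHF20 peak, 0 lay at a noncoding-only promoter. Taking 3 counts as the upper limit, which is not a Wilson limit, this allows a share of up to 7.32%. Members shared with PHF20L1 had a median width of 852 bp (206 to 1570) and the remaining 207 a median of 470 bp (200 to 1345). Within lncRNA members the medians were 897 and 474 bp, within pseudogenes 1157.5 and 421 bp, and within small RNA genes 497 and 288 bp. CpG island-like sequence was present at 40 of the 59 (67.8%) and 141 of the 207 (68.1%), and ACTTCCGG was found at 14 of the 59 (23.7%) and 16 of the 207 (7.73%). Neither pair of shares was tested, since both were chosen after their values were seen.

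**Figure D2:**
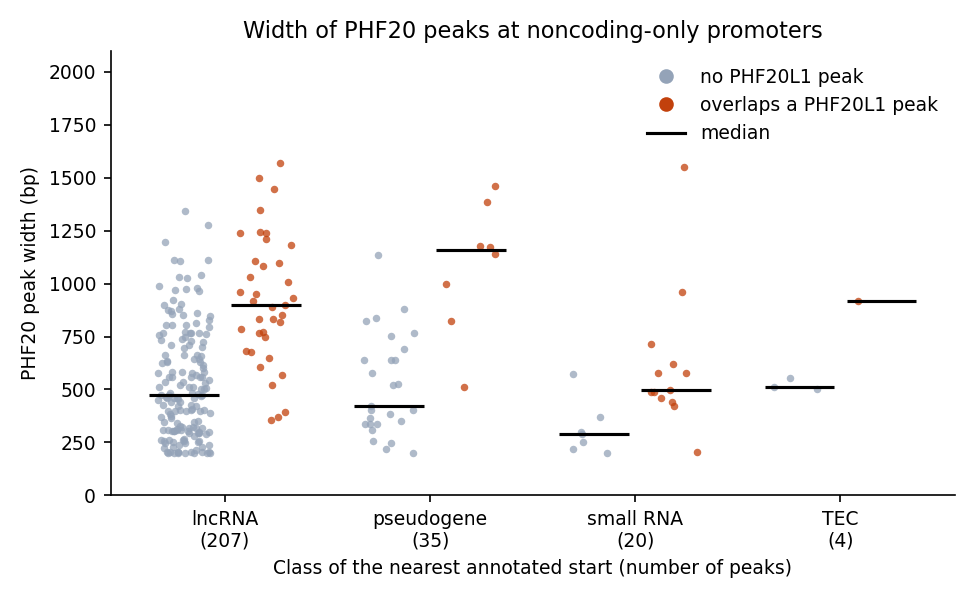
Width of each PHF20 peak at a noncoding-only promoter, in bp, by the class of its nearest noncoding start. Each point is 1 peak, grey without and orange with an overlapping PHF20L1 peak, and the black lines are medians. In every class the median is higher with PHF20L1, for lncRNA 897 against 474 bp, though TEC has only 1 such peak.

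Most small RNA members lay at genes of spliceosomal RNAs or of the U3 and U8 nucleolar RNAs, which act in ribosomal RNA processing. PHF20 peaks lay at the U5 genes RNU5A-1, RNU5B-1, RNU5D-1 and RNU5E-1, at the U4 genes RNU4-1 and RNU4-2, at the U1 gene RNU1-2 and the variant U1 genes RNVU1-6 and RNVU1-29, at SNORD118 (U8 RNA), at SNORD3A, SNORD3B-1 and SNORD3B-2 (U3 RNA), and at a U3 copy in an intron of TEX14. The U5 copies RNU5E-4P and RNU5A-8P, whose symbols mark pseudogenes but whose type is snRNA, held peaks as well. The widest was at the U3 copy (ENSG00000212195, chr17:58631287-58632839, 1553 bp), followed by RNU5B-1 (961 bp), RNU5E-1 (715 bp), RNU5A-1 (620 bp) and RNU4-2 (580 bp). At RNU4-2 the peak also met the window of a coding start that RefSeq gives for SIRT4.

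PHF20L1 overlapped the PHF20 peak at 13 small RNA members, from the U3 copy with a pair of PHF20L1 peaks, the one over the RNA 510 bp wide, to SNORD3A, where the PHF20 peak was 206 bp wide and the PHF20L1 peak 207 bp. The matching PHF20L1 peaks measured 308 bp at RNU5A-1, 394 bp at RNU5B-1, 586 bp at RNU5E-1, 571 bp at RNU4-2, 233 bp at RNU4-1 and 512 bp at SNORD118. All 13 were at snRNA or snoRNA genes other than U6, of which there were 17 members (76.5% shared, Wilson interval 52.7% to 90.4%). RNU5D-1 (572 bp), RNU1-2 (219 bp), SNORD3B-1 (201 bp) and the more distant of the RNU5B-1 peaks (370 bp) had no PHF20L1 peak. The remaining small RNA members, RNU6-1, RNU6-621P and the miRNA gene ENSG00000265028, had none either. This grouping was made after the values were seen and was not tested.

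Most small RNA peaks lay over the RNA and the sequence after it. In 11 of 20 the PHF20 peak spanned the whole annotated RNA, and in 15 of 20 its centre lay downstream of the start, against 95 of 207 for lncRNA and 10 of 35 for pseudogenes. At RNU5A-1 the PHF20 peak ran from -142 to 477 bp and the PHF20L1 peak from -24 to 283 bp relative to the first base of the RNA, so that both covered the RNA of 116 bp. At RNU4-1, whose sequence is given above, the peaks ran from -93 to 329 bp and from 24 to 256 bp. In 4 members the peak lay wholly upstream of the RNA, from -595 to -346 bp at RNU6-1, from -862 to -575 bp at RNU6-621P, from -1061 to -692 bp at the second RNU5B-1 member and from -348 to -49 bp at ENSG00000265028. The median GC content was 44.7% over the small RNA members and 62% over the lncRNA members, and 14 of the 20 were under 50%. No small RNA member held ACTTCCGG, where 0.511% of all annotated small RNA promoters did.

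**Figure D3:**
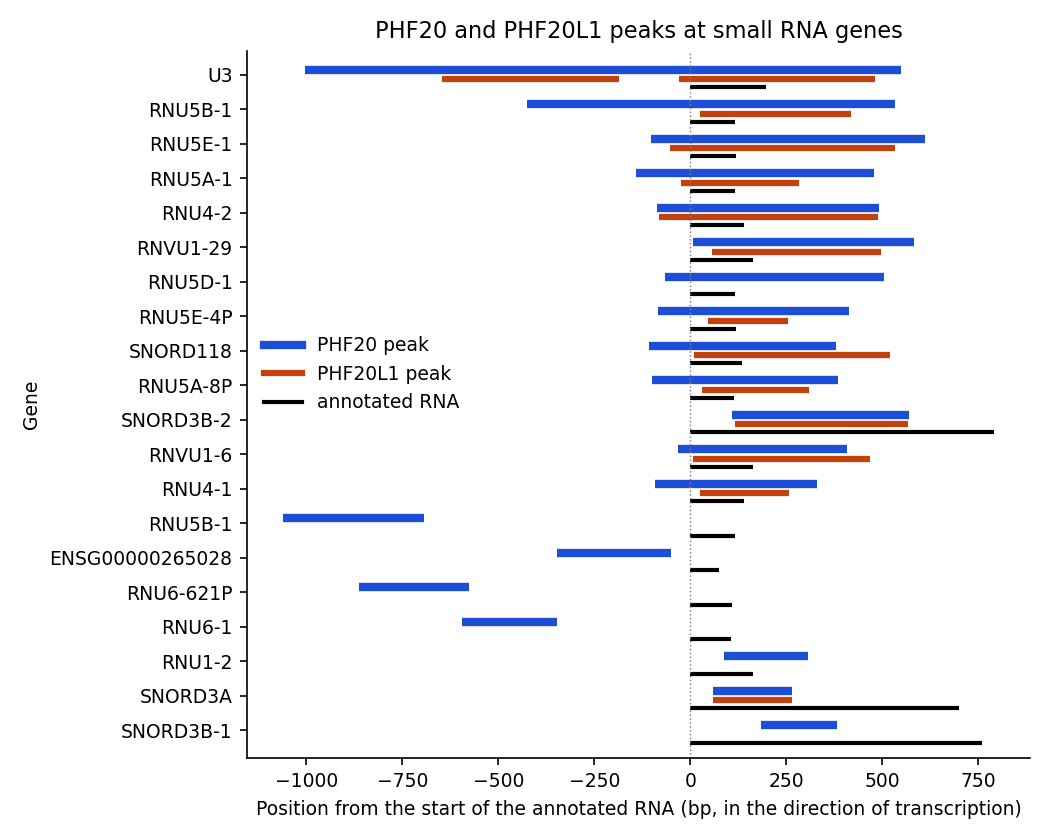
PHF20 peaks (blue), PHF20L1 peaks (orange) and annotated RNAs (black) at the 20 small RNA members, in bp from the start of the RNA in the direction of transcription, ordered by PHF20 width. PHF20L1 peaks lie under 13 of the PHF20 peaks, and the PHF20 peaks at RNU6-1, RNU6-621P, ENSG00000265028 and the second RNU5B-1 member lie wholly upstream of the RNA.

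Of the 50 annotated U1, U2, U4, U5, U7, U11, U12, U4atac, U6atac, U3 and U8 genes that have a symbol with no pseudogene suffix, 16 held a PHF20 peak in their window and 13 of these 16 also a PHF20L1 peak. A member peak lay at 13, where over all small RNA genes 1.72% held any PHF20 peak and 0.511% a member. The peaks at RNU11, RNU12 and RNU7-1 met a coding window as well and so were no members. Only RNU4ATAC had a PHF20L1 peak and no PHF20 peak. This list was also set after the values were seen. Of the 34 genes without a PHF20 peak, several have near-identical copies. Reads that map to more than 1 place had been left out, so at such genes the lack of a peak does not measure binding. Copies of the 34 genes were not searched for, so which of them this touches was not tested.

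The 3 widest lncRNA members lay nearest to starts known only by identifiers, though the second also met the window of ZSCAN16-AS1. ENSG00000271780 (chr14:101947575-101949144) had 1570 bp, ENSG00000261839 on chromosome 6 had 1497 bp, ENSG00000260369 on chromosome 17 had 1446 bp, and ENSG00000290835 on chromosome 7 had 1345 bp with no PHF20L1 peak. The first 3 had PHF20L1 peaks of 211, 264 and 237 bp. SNHG30 (1348 bp, PHF20L1 peak 295 bp), a host gene of small nucleolar RNAs, completed the 5 widest. Among the shared lncRNA members with a symbol, LINC01168 (1210 bp, PHF20L1 395 bp) came next. Of the 207 lncRNA members, 107 had a nearest start named only by an identifier. PHF20L1 shared 25 of these (23.4%), against 6 of 44 at LINC genes (13.6%) and 2 of 15 at antisense genes (13.3%).

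Host genes of small nucleolar RNAs carry these RNAs in their introns. Of 32 annotated, 11 (34.4%) held any PHF20 peak and 8 (25%) a member, where over all 42654 noncoding genes the shares were 3.25% and 0.87%, and over lncRNA genes 6.01% and 1.4%. The members were SNHG7 (660 bp), SNHG11 (662 bp), SNHG17 (534 bp), SNHG21 (735 bp), SNHG25 (629 bp), SNHG29 (308 bp), SNHG30 (1348 bp) and EPB41L4A-AS1 (806 bp), and PHF20L1 overlapped only SNHG30. GAS5, SNHG9 and SNHG20 had peaks that met a coding window. SNHG7 was 1 of 6 members that met the start window of a coding gene in RefSeq, there of LOC124900276. The others of the 6 were RNU4-2 and 4 lncRNAs, and the rule kept all of them because GENCODE has no coding start there.

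Well-studied lncRNAs gave 4 genes with a member among 26 (15.4%), where the share over all lncRNA genes was 1.4%. MALAT1, an abundant nuclear RNA, had a 395 bp peak (chr11:65498907-65499301) with a PHF20L1 peak of 200 bp, at 38.2% GC and with no CpG island-like sequence. NORAD, an RNA that binds PUMILIO proteins, had a 709 bp peak without PHF20L1 and held ACTTCCGG and CACGTGAC. JPX, a noncoding gene of the X inactivation centre, had a 901 bp peak without PHF20L1. LINC00667 had a 1082 bp peak with a PHF20L1 peak of 420 bp. FGD5-AS1 was the fifth gene of the list with a PHF20 peak, which met a coding window.

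The remaining lists ranged from 0.169% to 7.14% of their genes with a member, where the share was 0.87% over all noncoding genes, 1.4% over lncRNA genes and 0.511% over small RNA genes. Hosts of microRNAs gave 6 of 84 genes (7.14%), MIR34AHG (385 bp), MIR4458HG (442 bp), MIR762HG (804 bp), MIRLET7IHG (205 bp), MIR3171HG (353 bp, typed as a pseudogene) and MIRLET7BHG, which shared a 320 bp peak with PRR34-AS1 at PRR34, and none of these met PHF20L1. LINC genes gave 59 of 2284 (2.58%) and antisense genes 20 of 1851 (1.08%), and 186 of the 206 antisense genes with any PHF20 peak had it at a coding window. Divergent transcripts, which by their definition start beside a coding gene, gave 183 of 590 with any peak and TNFRSF10A-DT as the 1 member (0.169%). RNA polymerase III genes gave 1 member of 17 (5.88%), RNU6-1 (250 bp), and RMRP, RPPH1, RNU6-2 and RNU6-9 held peaks that met coding windows. The lists were drawn up with results of these data known, so their counts are descriptions.

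Pseudogene members were led by VENTXP5 (1462 bp), AFG3L1P (1385 bp), FRG1GP (1180 bp), ENSG00000227710 (1173 bp) and FNBP1P1 (1142 bp), and all 5 overlapped PHF20L1. AFG3L1P, a gene of a mitochondrial protease family that has lost its coding capacity, had a PHF20L1 peak of 480 bp at 74.4% GC. VENTXP5 and ENSG00000227710 had no CpG island-like sequence (CpG ratios 0.391 and 0.196). FRG1 copies were grouped after the values were seen. Those nearest to a member's centre were FRG1GP, FRG1BP (1134 bp), FRG1EP (997 bp), FRG1FP (837 bp), FRG1JP (823 bp) and FRG1DP (638 bp), on chromosomes 9, 20 and 22. All 6 were CpG island-like, 4 held ACTTCCGG (FRG1GP, FRG1EP, FRG1JP and FRG1DP) and 3 met PHF20L1 (FRG1GP, FRG1EP and FRG1JP). The lncRNA members ENSG00000291100 (831 bp) and ENSG00000291075 (1183 bp) also met the windows of FRG1CP and FRG1HP, which makes 8 members at FRG1 copies, all CpG island-like, 5 with ACTTCCGG and 5 with PHF20L1. The copies share their sequence by descent and are not independent.

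The TEC members were ENSG00000279602 (918 bp, PHF20L1 peak 717 bp), ENSG00000279631 (555 bp), ENSG00000279711 (511 bp) and ENSG00000279140 (502 bp).

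Some member sequences recur in the genome. A further copy in hg38, of at least 95% identity over at least 80% of the peak, was found for 18 members (6.77%, Wilson interval 4.32% to 10.4%), for 15 coding promoter peaks (0.421%, 0.255% to 0.694%) and for 6 peaks outside promoters (1.88%, 0.865% to 4.04%). This comparison was added after the values were seen and was not tested. The copies include SNORD3A and SNORD3B-2, RNVU1-29 and the WASH family copy WASH2P (624 bp). Since only uniquely mapped reads were used, reads that fit several copies equally were not counted in such peaks. The reads behind these peaks were not examined. Without these 18 members the difference in ACTTCCGG from coding promoters missed the threshold (exact adjusted p = 0.0638), and all other differences that had passed kept their side of it.

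Distances from members to coding starts are given as a description, with no other set of peaks or promoters for comparison. From the peak edge, the next coding TSS was at a median of 25691 bp (quartiles 12041 and 76478), with 5 members within 1000 bp, 34 within 5000 bp, 56 within 10000 bp and 178 within 50000 bp. Since the rule removes peaks at coding windows, the smallest distances are set by it. The nearest were ENSG00000286489 at 543 bp from FBXW4, HOXA11-AS at 549 bp from HOXA11 and ZNRF2P3 at 684 bp from SFTPD. The farthest were FRG1FP (4566340 bp) and FRG1GP (2925359 bp), both nearest to OR11H1, and ENSG00000291100 (2654373 bp), nearest to DEFB115. Over 1000000 bp lay 16 members, 9 at lncRNAs and 7 at pseudogenes by their nearest start, and 6 of them met the window of an FRG1 copy.

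The gene of the member and the next coding gene were transcribed in the same direction in 133 cases (50%), divergently in 77 (28.9%) and convergently in 56 (21.1%). The next coding gene had a PHF20 peak of its own in 50 cases (18.8%), against 20.7% of all 20046 coding genes. By place, 233 members lay between coding genes, 30 in an intron and 3 in an exon of a coding gene. No shares over all noncoding genes are given for direction or place, so these counts only describe the members. PHF20L1 overlapped 16 of the 56 members within 10000 bp of a coding start (28.6%, Wilson interval 18.4% to 41.5%), 32 of 153 from there to 100000 bp (20.9%, 15.2% to 28%) and 11 of 57 beyond (19.3%, 11.1% to 31.3%), and these intervals overlap.

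**Figure D4:**
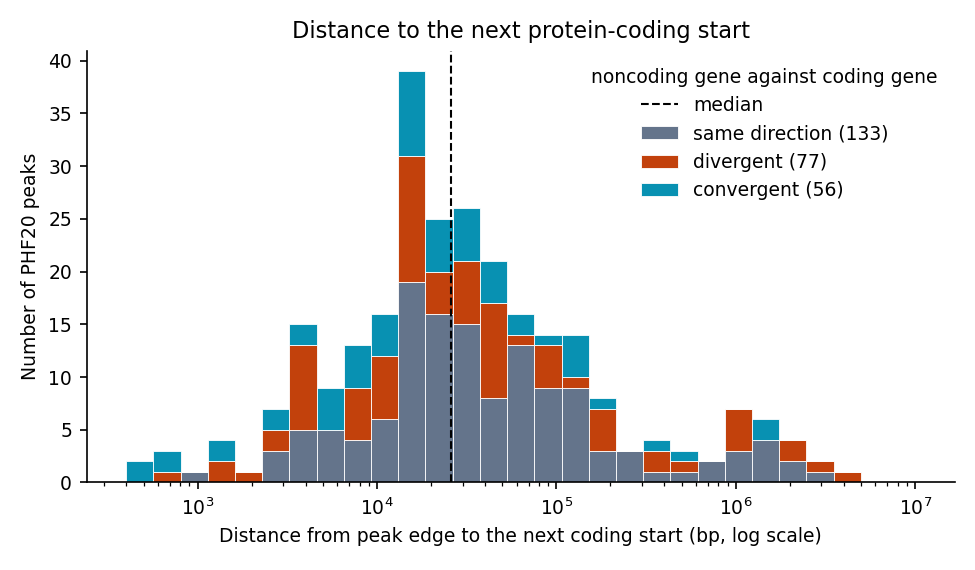
Number of members by distance from the peak edge to the next protein-coding start, in bp on a log scale, stacked by the direction of the noncoding gene against that coding gene. The dashed line is the median, 25691 bp, and 16 members lie beyond 1000000 bp.

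At the edge of the rule, ENSG00000286489 (746 bp) and HOXA11-AS (767 bp) lay 43 and 49 bp outside the nearest coding window. On the other side, peaks of 527 bp at FGFBP3 and of 303 bp at MAGI2 and MAGI2-AS3 met a coding window by 7 and 9 bp and were no members.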

How the data were processed

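HA ChIP-Seq of tagged PHF20 and PHF20L1 was analysed from 2 deposited lists of peak positions (start and end in bp, unit: other), 4147 for PHF20 and 723 for PHF20L1. The authors aligned reads with Bowtie 1.1.2 to hg38, kept unique, deduplicated reads, called peaks with MACS2 2.2.7.1 against input, removed blacklisted regions and kept the peaks of the best replicate that recurred in another. They also left out 1 PHF20 replicate that failed. The p-value limit was stricter for the best replicate than for the others, and the authors report that signal intensity varied between replicates. No normalisation applies.

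Peaks were classed with GENCODE 44 (the authors used another release) in Python 3.11.15 with pandas 2.3.3. Shares were compared by 2-sided Fisher's exact tests (scipy 1.17.1), with Benjamini-Hochberg adjustment over 14 tests at 0.05, Wilson intervals, and Newcombe intervals of differences (statsmodels 0.14.6). Copies were found with minimap2 2.31-r1302. The sequences are from hg38. The scripts were tested on simulated peaks. Titles and descriptions number the replicates differently, which does not touch the combined lists.

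Members, lists and measures were chosen with earlier results of these data known. Named are the genes of the lists that hold a member (of LINC and antisense genes only some), the widest members of each class, the widest shared with PHF20L1, those nearest to, farthest from or at the edge of coding windows, and genes said to be chosen later. A few items are not reported here.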

Additional observations from a re-analysis of the deposited data

How the results depend on the processing

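No paired analysis was possible because each final list merges its replicates, so none could be left out either. The settings were a peak centre in the window, basic transcripts, the outermost TSS of each gene, a wider or narrower window, peaks of at least 300 bp, stricter overlap, width, CpG and 8-mer settings, and subsets of members. Settings chosen after seeing the data left out small RNA members, members with copies and members at RefSeq coding starts. The number of members ranged from 220 to 386 over 6 settings. Of 196 values, 164 were counted as unchanged. Among these were the 6 member counts, which have no direction and no threshold for a p-value. The rest of the 164 were differences that kept their direction and side of the threshold. They include all those for width, CpG content, PHF20L1 against peaks outside promoters, and the lncRNA windows. The causes of the changes below were not tested. Values are differences in percentage points, members minus the other set.

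PHF20L1 against coding promoters missed the threshold with basic transcripts (4.58), outermost TSS (3.17), the wider window (5.05), members over 5000 bp from a coding TSS (5.07), lncRNA members (1.39) and no small RNA members (2.22). ACTTCCGG against coding promoters missed it with the peak centre (-4.87), outermost TSS (-3.67), the wider window (-4.42), 300 bp peaks (-4.61), 200 bp of sequence (-0.942), members over 5000 bp away (-5.09), lncRNA members (-5.14), no small RNA members (-4.54) and no copies (-5.04). ACTTCCGG against peaks outside promoters missed it with 300 bp peaks (6.15), 200 bp (4.01) and 1000 bp of sequence (4.88). CACGTGAC against peaks outside promoters missed it with outermost TSS (2.65), the wider window (3.77), 300 bp peaks (2.62) and 200 bp (0.25). TCTCGCGA against peaks outside promoters passed it with outermost TSS (2.15) and 1000 bp (2.76). Signs turned only for differences that passed nowhere: CACGTGAC against coding promoters with 200 bp (-0.63), and GCGCATGC against peaks outside promoters with the peak centre (0.0838), the wider (0.464) and narrower window (0.439), 200 bp (0.125), 1000 bp (0.435), lncRNA members (0.247) and no small RNA members (0.117).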
